A study of Arabidopsis thaliana with 8 samples.

Results

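The genes described here are the tau and phi class glutathione transferases of Arabidopsis thaliana, GSTU1 to GSTU28 of the tau class and GSTF2 to GSTF8 and GSTF11 to GSTF14 of the phi class. They were chosen by gene identity, as rows of the authors' deposited table that hold 1 of these 39 loci alone. All 28 tau genes and 10 of the 11 phi genes have such a row, which makes 38 of the 33201 rows. GSTF8 shares its row with a neighbouring gene and is left out of the counts of levels and calls; the counts of genome position and promoter motifs cover all 39 loci.

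Glutathione transferases join the tripeptide glutathione to reactive or foreign molecules, or carry such molecules as ligands. The conjugates are then moved into the vacuole by ABCC transporters. Tau and phi are the major plant classes, known from herbicide tolerance and from responses to stress hormones and oxidised lipids, and several of their promoters carry TGACG elements, the sites of TGA class bZIP factors. PAN (PERIANTHIA) is a member of that class.

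RNA was sequenced from root cells of the Col-0 accession, taken at 5 days, protoplasted, and sorted by the WOX5::GFP reporter of the quiescent center (QC), the slowly dividing cells at the core of the root stem cell niche. The design has 4 wild type libraries and 4 pan mutant libraries, labelled as separate biological replicates, and all 8 carry the reporter. The mutant allele is not given in the sources used here. At issue is which genes need PAN for their level in these sorted cells. Levels are FPKM, fragments divided by transcript length and by the library's mapped total, so that genes of different length can be compared; the table gives 1 pooled value per genotype. No library has a value of its own, so no spread can be shown, and the authors' q-value, their p-value adjusted over 19789 tested genes, is the sole measure of replicate error. A gene is called at a q-value under 0.05, and depth per library is unknown.

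RNA of the WOX5 gene, whose reporter was used for the sort, and of the targeted gene PAN was lower in the pan libraries. No value for the reporter itself is given here. By the authors' deposited table PAN stood at 19.996 FPKM in wild type against 0.265 FPKM in the mutant, and WOX5 at 205 and 8.27 FPKM, both called. All 7 markers listed for the QC and niche, WOX5 among them, were called lower. Their summed level was 623 FPKM in wild type against 50.2 FPKM in the mutant per the authors' deposited table. All 6 root cap markers were called lower too, with sums of 646 and 219 FPKM. Of 8 epidermis and root hair markers 4 were called higher, with sums of 476 and 1502 FPKM per the authors' deposited table. Of 6 stele markers 3 were called lower and 1 higher, with sums of 74.3 and 75.9 FPKM. Of 4 endodermis and cortex markers 1 was called higher, with sums of 94.6 and 218 FPKM. Of 4 wound-responsive genes 3 were called lower, while the list summed to 608 and 793 FPKM per the authors' deposited table. Beside these counts, 17.8% of all tested genes were called, 8.01% higher and 9.83% lower. Green tissue markers summed to 2.91 and 0.513 FPKM per the authors' deposited table, and no marker was listed at 0 in either genotype. The part of these shifts in the results below was not tested. In RNA from a sorted population, fewer cells that express a gene and less of its RNA per cell cannot be told apart.

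Among the 38 genes with a row of their own, the tau class made up nearly all the transferase RNA. Its summed level was nearly the same in both genotypes. Over the 38 genes the summed level was 6144 FPKM in wild type against 5962 FPKM in the mutant per the authors' deposited table, a ratio of 0.970. Tau genes held 99.8% of that sum in each genotype. The sum leaves out the phi genes GSTF8, GSTF9 and GSTF10, whose rows are abundant in wild type and are given below. GSTU19, an abundant enzyme active on herbicides and on synthetic test substrates, alone held 44.6% in wild type and 35.5% in pan, and was the highest of the 38 in both. It stood 6th from the top among all rows in wild type and 12th in pan. The authors' deposited table gave it 2742 and 2115 FPKM, a log2 change of -0.38 that was not called (q = 0.473). The median tau gene had a wild type level of 45.5 FPKM and a mutant level of 32.2 FPKM, and for the 10 phi genes these medians were 0.620 and 0.530 FPKM.

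**Figure D1:**
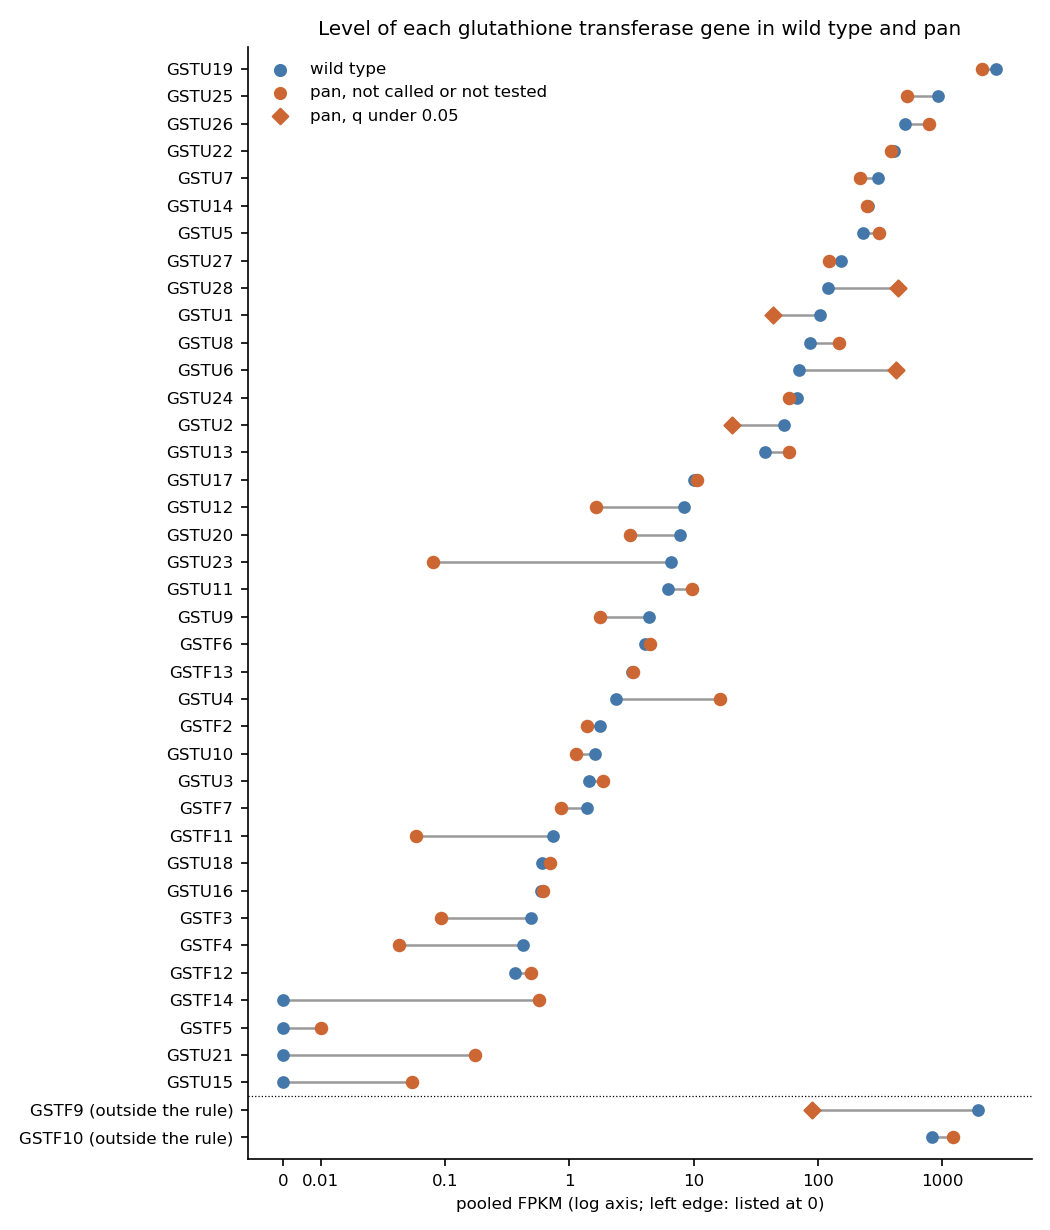
Pooled FPKM of each gene in wild type (blue) and pan (orange) on a log axis, ordered by the wild type level, with genes listed at 0 drawn at the left edge and diamonds for pan values with a q-value under 0.05. GSTU19 leads in both genotypes, 4 tau genes carry a diamond, and the pair below the dotted line, GSTF9 and GSTF10, lies outside the rule that chose the genes.

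Of the 29 members that were tested, 2 rose (GSTU6 and GSTU28), 2 fell (GSTU1 and GSTU2) and 25 were not called. The called share of tested members was 13.8%, beside 17.8% of all tested genes, with 8.01% of them called higher and 9.83% lower. These shares are close, so the family as a whole is not marked out by its number of calls. The median log2 change of the tested members was -0.22, beside -0.17 for all tested genes with a finite change. Of these members 12 had a value above 0 and 17 below 0, and 13 lay within 1.5-fold of no change. The other 9 members with a row were not tested by the authors, and none of them reached 1 FPKM in either genotype.

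GSTU6 showed the largest called rise. The authors' deposited table gave this tau gene (AT2G29440, chromosome 2, 12620060 to 12621148, minus strand, TAIR10) 70.2 FPKM in wild type against 423 FPKM in the mutant. It was higher in pan by 6.03-fold (log2 2.59, q = 0.00116 per the authors' deposited table), and moved from the 12th to the 5th place among the members.

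GSTU28, a gene with no near neighbour of its family, was the other to rise. It lies at AT1G53680 (chromosome 1, 20038358 to 20039117, plus strand) and stood at 121 FPKM in wild type against 443 FPKM in the mutant per the authors' deposited table. That is 3.67-fold higher in pan (log2 1.88, q = 0.00116 per the authors' deposited table). Both risers hold the lowest q-value of the table, so their order by significance is not resolved. Of the marker lists, those of epidermis and root hair, endodermis and cortex, and wound response also summed higher in pan, and stele slightly so. In that order, 8 of 8, 2 of 4, 1 of 4 and 1 of 6 genes had a log2 value above 0, so the sums need not show the direction of most genes. The QC, root cap and green tissue lists summed lower, and a link to the rises of GSTU6 and GSTU28 was not tested.

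GSTU1 and GSTU2, neighbours on chromosome 2, fell by similar amounts. GSTU1 (AT2G29490, 12631378 to 12632473, minus strand) stood at 105 FPKM in wild type against 43.8 FPKM in the mutant per the authors' deposited table (log2 -1.26, 2.40-fold, q = 0.0219). GSTU2 (AT2G29480, 12630198 to 12631321, minus strand) had 53.6 and 20.6 FPKM there (log2 -1.38, 2.60-fold, q = 0.0415 per the authors' deposited table). Neither was called at a q-value under 0.01, at which GSTU6 and GSTU28 were still called and 8.64% of all tested genes were (4.25% higher and 4.39% lower). Their coding sequences are 85.5% identical, the closest tau pair, so reads could be shared between them where the sequences match, and the counting is not stated to prevent it.

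Just outside the threshold lay GSTU4 and GSTU25. By the authors' deposited table GSTU4 had 2.38 FPKM in wild type against 16.5 FPKM in the mutant, a log2 value of 2.79 with q = 0.0512. GSTU25, an enzyme known to act on the explosive trinitrotoluene, had 934 and 519 FPKM, a log2 value of -0.85 with q = 0.0538 per the authors' deposited table. Both were called when the p-values were adjusted over genes with a mean of at least 1 FPKM alone, which called 6 members and 19.9% of all genes tested there. Raising that minimum to 5 FPKM called the same 6 members, with 26.3% of all genes. GSTU12 followed with 8.31 and 1.63 FPKM (log2 -2.35, q = 0.0721 per the authors' deposited table). With 5 FPKM added to both levels the log2 values of GSTU4 and GSTU12 were 1.54 and -1.01. At a q-value under 0.1, 3 members were higher and 4 lower, while 24.3% of all tested genes were called (10.8% higher and 13.5% lower). A fold of at least 2 beside a q-value under 0.05 left the 4 calls as they were, with 17.2% of all tested genes called.

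The lowest log2 value of all members belonged to GSTU23, which did not pass the test. Its level was 6.56 FPKM in wild type against 0.0799 FPKM in the mutant per the authors' deposited table (log2 -6.36), with q = 0.271. Its size rests on the low mutant level: with 0.1, 1 or 5 FPKM added to both levels the log2 value was -5.21, -2.81 or -1.19, and in the last case GSTU2 (-1.194) was lower than GSTU23 (-1.186).

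**Figure D2:**
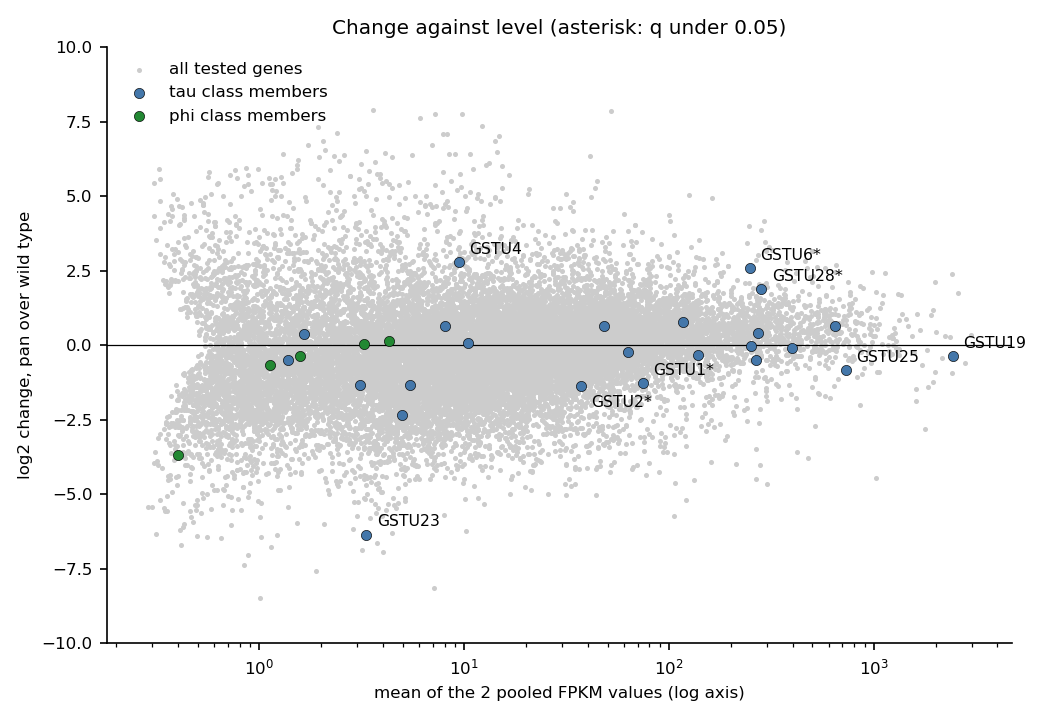
Log2 change (pan over wild type) against the mean of both pooled FPKM values on a log axis for all tested genes with a finite change (grey), with tau members in blue and phi members in green; asterisks mark a q-value under 0.05. GSTU6 (2.59) and GSTU28 (1.88) stand above the abundant members, most of which lie near 0, and GSTU23 (-6.36) is low in level and was not called.

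The members that followed GSTU19 in wild type abundance were not called. GSTU26 had 503 FPKM in wild type against 786 FPKM in the mutant per the authors' deposited table (q = 0.139), and took the 2nd place from GSTU25. GSTU22 had 411 and 387 FPKM there (q = 0.887 per the authors' deposited table). GSTU7 had 308 and 220 FPKM (q = 0.324 per the authors' deposited table), with the limit that its listed locus is also given to the metal transporter gene MTPB1. GSTU14 had the log2 value nearest to 0 of these, with 254 and 248 FPKM per the authors' deposited table (q = 0.956). GSTU5, at 233 and 309 FPKM, was not called either (q = 0.430 per the authors' deposited table). Tested genes in the top expression class, 1 of 20 equal classes by mean FPKM, had a median log2 change of 0.45. GSTU19, GSTU25, GSTU22, GSTU7 and GSTU14, all with negative values, lay below that median. The spread of the class around it is not given here.

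At intermediate levels 4 more tau genes were not called. GSTU27 had 155 FPKM in wild type against 123 FPKM in the mutant, and GSTU8 had 85.9 and 147 FPKM per the authors' deposited table. GSTU24, which is known to respond to foreign chemicals and also acts on trinitrotoluene, stood at 68.0 and 58.2 FPKM per the authors' deposited table. GSTU13, an enzyme of indole glucosinolate metabolism in defence, had 37.4 and 58.9 FPKM per the authors' deposited table. Their q-values ran from 0.179 for GSTU8 to 0.738 for GSTU24 per the authors' deposited table.

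Tau genes of low level include several with named functions. GSTU17, known as ERD9 and for light and abscisic acid responses, was almost level at 10.2 FPKM in wild type against 10.7 FPKM in the mutant per the authors' deposited table (q = 0.956). GSTU20, linked to glucosinolate synthesis and to far-red light and jasmonate signalling, had 7.79 and 3.10 FPKM (q = 0.324 per the authors' deposited table). GSTU11 had 6.26 and 9.79 FPKM, GSTU9 had 4.41 and 1.75 FPKM, GSTU10 had 1.62 and 1.14 FPKM and GSTU3 had 1.44 and 1.85 FPKM per the authors' deposited table, none of them called. Among untested tau genes, the authors' deposited table listed GSTU16 at 0.589 and 0.609 FPKM and GSTU18 at 0.601 and 0.704 FPKM. GSTU15 and GSTU21 were listed at 0 in wild type and at 0.0544 and 0.175 FPKM in pan per the authors' deposited table.

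The phi members with a row of their own were scarce in both genotypes. None was called among 5 tested, too few to read against the 17.8% of all tested genes. GSTF6, which acts in camalexin synthesis, was the highest in both, at 4.08 FPKM in wild type against 4.49 FPKM in the mutant per the authors' deposited table (q = 0.948). GSTF13 had 3.18 and 3.26 FPKM (q = 0.986 per the authors' deposited table). GSTF2, a protein known to bind auxin and other indoles, stood at 1.78 and 1.38 FPKM, and GSTF7 at 1.38 and 0.862 FPKM per the authors' deposited table. Reads of GSTF2 and GSTF3, and of GSTF6 and GSTF7, are the least certain, since the coding sequences of these pairs are 94.5% and 94.3% identical. GSTF11, which belongs to glucosinolate synthesis, had 0.745 and 0.0580 FPKM, a log2 value of -3.68 that was not called (q = 0.349 per the authors' deposited table). It was -2.42, -0.72 or -0.18 with 0.1, 1 or 5 FPKM added to both levels, and -2.55 relative to the median change of genes of like level.

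Untested phi members lay lower still. GSTF3 stood at 0.494 and 0.0930 FPKM, GSTF4 at 0.423 and 0.0427 FPKM and GSTF12 (TT19), needed to bring anthocyanins to the vacuole, at 0.363 and 0.493 FPKM per the authors' deposited table. GSTF4 shares its listed locus with AT1G02952. GSTF14 and GSTF5 were listed at 0 in wild type and at 0.568 and 0.0101 FPKM in pan per the authors' deposited table. A listing at 0 in wild type alone was common in this table, with 6013 such rows against 203 at 0 in pan alone.

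The low phi level holds for the 10 phi members with a row of their own. The row that GSTF8 shares with AT2G47720 stood at 1077 FPKM in wild type against 1442 FPKM in the mutant per the authors' deposited table (q = 0.385), and the share of each gene in it is not known. GSTF9 and GSTF10, a neighbouring pair of the phi class that the rule leaves out, were looked up after the values of the members had been seen. GSTF9 (AT2G30860, chromosome 2, 13138997 to 13140245, plus strand) stood at 1956 FPKM in wild type against 89.3 FPKM in the mutant per the authors' deposited table. It was the 18th highest of all rows in wild type and fell by 4.45 on the log2 scale, or 21.9-fold (q = 0.00116 per the authors' deposited table). GSTF10 (AT2G30870) had 837 and 1232 FPKM and was not called (q = 0.199 per the authors' deposited table). These neighbours have coding sequences 77.6% identical, and the difference between their changes was not tested. With both added and GSTF8 still left out, the summed phi level was 2806 FPKM in wild type against 1333 FPKM in the mutant.

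Position in the genome was compared next, because 27 of the 39 members lie in 8 tandem groups, in which neighbouring genes start within 20 kb of each other. The group of GSTU1 to GSTU7 on chromosome 2 (12616564 to 12632473) holds 3 of the 4 calls among its 7 tested genes, 42.9% called beside 17.8% of all tested genes. GSTU6 rose there while GSTU1 and GSTU2 fell. From GSTU7 to GSTU1 in chromosomal order the log2 changes per the authors' deposited table were -0.48, 2.59, 0.41, 2.79, 0.36, -1.38 and -1.26. GSTU5 and GSTU6 are adjacent and 83.1% identical in coding sequence, and GSTU6 rose while GSTU5 was not called. GSTU4 and GSTU2 are 83.6% identical and had log2 values of 2.79 and -1.38 per the authors' deposited table, but GSTU4 was not called (q = 0.0512). The differences between the genes of these pairs were not tested. In the group of GSTU19 to GSTU23 on chromosome 1 all 4 tested genes had negative log2 values, from -6.36 to -0.09 per the authors' deposited table, and none was called. GSTU24, GSTU25 and GSTU26 had -0.22, -0.85 and 0.64 per the authors' deposited table, again with no call.

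**Figure D3:**
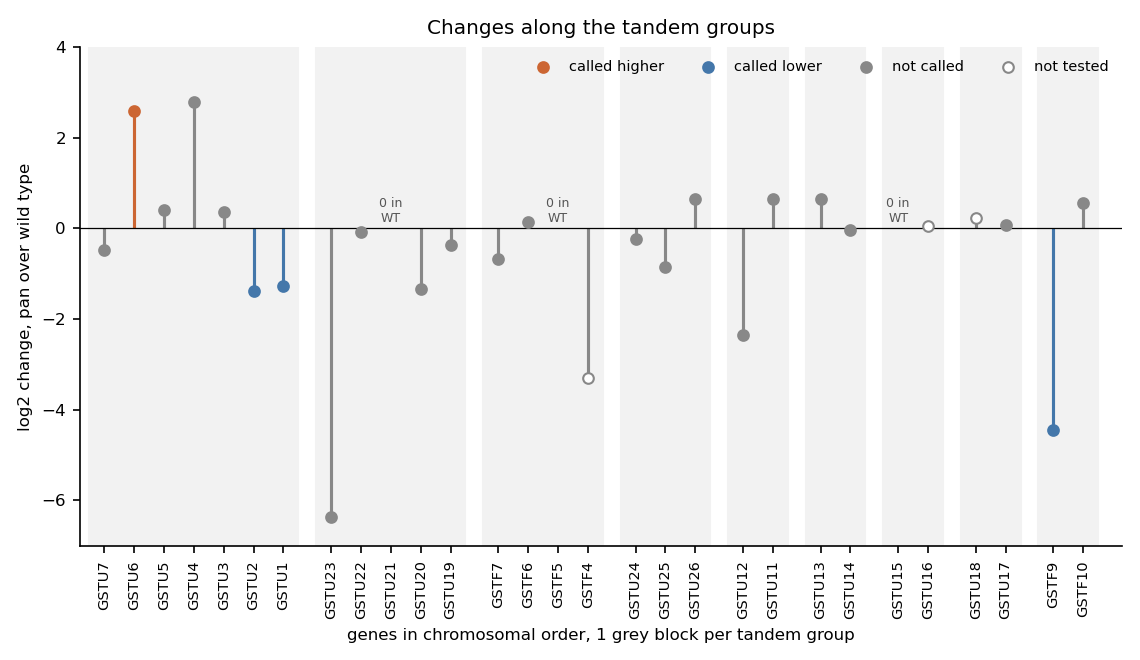
Log2 change (pan over wild type) of the genes of each tandem group in chromosomal order, 1 grey block per group, with called genes in colour, untested genes as open circles and genes listed at 0 in wild type marked as such. In the block of GSTU7 to GSTU1 values of both signs stand side by side, and the last block is the pair GSTF9 (-4.45) and GSTF10 (0.56) from outside the rule.

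Likeness in coding sequence and likeness in response were set side by side as a description. Among tested pairs of members with at least 75% identical bases (17 pairs) the log2 changes differed by 0.12 to 4.17, with a median of 0.82. Among the 269 tested pairs of 1 class below 75% the median difference was 1.23. All such pairs with GSTU23 or GSTF11, whose log2 values rest on low mutant levels, fall in this second group. The pairs share genes and are not independent, so no test was made. GSTU1 and GSTU2 gave the lowest difference among the closer pairs, and GSTU2 and GSTU4 the highest.

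The promoters were searched for TGACG, the core of the element bound by TGA class factors, on both strands of the 300 bases before each RefSeq gene start (assembly TAIR10.1). A match was found in 16 of the 39 members (41.0%), GSTF8 included, against 21.3% of 27437 protein-coding genes. The longer TGACGT, which contains the first motif, was found in 8 members (20.5%) and in 8.73% of those genes. The palindrome TGACGTCA, which contains both, was found in GSTU7 alone and in 0.554% of those genes. TGACG itself was found in 11 of 25 tested members not called and in 2 of 4 called ones, GSTU1 and GSTU6. Of all protein-coding genes called higher in pan 21.0% held it, and of those called lower 20.6%, beside 21.9% of those tested. Neither GSTU2 nor GSTU28 had a match in this window, and their windows overlap neighbouring genes, GSTU1 for GSTU2 and AT1G53670 for GSTU28. Of the windows with a match, those of GSTU5, GSTU7, GSTU8, GSTU24, GSTF8 and GSTF12 also overlap another gene, which is AT2G00850 for GSTU7. A match is not a measured binding site. The windows of the called members that hold a match are shown first, and then 90 bases, from 120 to 31 upstream of the start, of abundant members with a match in the same stretch. Capitals mark TGACG on either strand, and sequences run 5′ to 3′ along the gene's strand.
GSTU1 (chr2:12632539-12632838, minus strand): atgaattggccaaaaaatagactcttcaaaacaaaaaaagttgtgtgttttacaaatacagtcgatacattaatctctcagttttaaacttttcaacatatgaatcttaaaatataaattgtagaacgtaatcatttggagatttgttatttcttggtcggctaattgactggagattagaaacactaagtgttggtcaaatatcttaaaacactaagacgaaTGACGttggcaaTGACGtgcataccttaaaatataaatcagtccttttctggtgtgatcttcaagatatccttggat
GSTU6 (chr2:12621232-12621531, minus strand): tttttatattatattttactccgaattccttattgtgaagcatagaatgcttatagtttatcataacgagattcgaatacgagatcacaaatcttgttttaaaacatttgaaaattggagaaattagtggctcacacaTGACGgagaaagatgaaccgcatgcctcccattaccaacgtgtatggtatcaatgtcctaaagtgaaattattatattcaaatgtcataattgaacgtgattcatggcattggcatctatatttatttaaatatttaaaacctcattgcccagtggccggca
GSTU7 (chr2:12618930-12619019, minus strand): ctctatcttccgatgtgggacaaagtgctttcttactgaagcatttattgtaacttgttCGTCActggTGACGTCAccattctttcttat
GSTU22 (chr1:29474034-29474123, minus strand): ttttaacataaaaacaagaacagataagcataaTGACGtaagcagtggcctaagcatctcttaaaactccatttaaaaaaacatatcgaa
GSTU25 (chr1:5871904-5871993, plus strand): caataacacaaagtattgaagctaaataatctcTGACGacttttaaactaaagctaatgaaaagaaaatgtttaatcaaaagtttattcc
GSTU27 (chr3:15660650-15660739, plus strand): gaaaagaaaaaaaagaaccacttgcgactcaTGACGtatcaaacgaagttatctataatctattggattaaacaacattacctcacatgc

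In GSTU1, lower in pan, the pair of matches begins 77 and 65 bases before the start. The single match of GSTU6, higher in pan, begins at 162 bases. GSTU7 holds matches beginning at 61, 52 and 49 bases, of which the last 2 overlap in the palindrome. In GSTU22 and GSTU25 the match begins at 87 bases, and in GSTU27 at 89 bases, and none of these abundant genes was called.

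Genes that make, recycle and use glutathione showed calls in both directions. Of 10 tested genes of glutathione synthesis and turnover none was called, beside 17.8% of all tested genes. The widest log2 values there were -2.26 for AT5G26220, a ChaC-like gamma-glutamyl cyclotransferase that breaks glutathione down (14.5 and 3.04 FPKM, q = 0.0509 per the authors' deposited table), and 0.85 for the gamma-glutamyl transferase GGT1 (3.54 and 6.38 FPKM, q = 0.544 per the authors' deposited table). GSH1, which makes the first and limiting step of synthesis, was almost level at 81.9 and 79.7 FPKM per the authors' deposited table.

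Members of the GPX family, thiol-dependent peroxidases, were among the genes that rose. Of 9 tested genes of glutathione reduction and the GPX family, 2 rose and 1 fell, 33.3% called beside 17.8% of all tested genes. GPX2 rose from 41.8 to 206 FPKM (log2 2.30, q = 0.00273) and GPX6 from 71.8 to 191 FPKM (log2 1.41, q = 0.00273) per the authors' deposited table. The organellar glutathione reductase AT3G54660 fell from 20.5 to 8.63 FPKM (q = 0.0480 per the authors' deposited table), while the q-value of its relative GR1 was 0.506.

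Of 12 tested transferases of other classes, GSTL3 of the lambda class alone was called, 8.33% beside 17.8% of all tested genes. It fell from 18.0 to 4.76 FPKM per the authors' deposited table (log2 -1.92, q = 0.0457). The list's median was -0.77. Of 3 tested ABCC transporters for glutathione conjugates, ABCC3 fell from 52.6 to 7.16 FPKM (log2 -2.88, q = 0.00116 per the authors' deposited table), and ABCC1 and ABCC2 were not called. With 3 genes, 1 call (33.3%) says little against the 17.8% of all tested genes.

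Other detoxification enzymes changed in both directions. Of 10 tested, 3 rose and 1 fell, 40.0% called against 17.8% of all tested genes, and the list was chosen with earlier calls for OPR1 and OPR2 known. UGT73B4 and UGT73B5 of the list share a row and are outside these counts. That row stood at 292 FPKM in wild type against 304 FPKM in the mutant (q = 0.916 per the authors' deposited table). UGT74F2, which glucosylates salicylic acid, rose from 59.7 to 297 FPKM (log2 2.31, q = 0.00116) per the authors' deposited table. OPR1 and OPR2, oxophytodienoate reductases, had log2 changes of 1.098 and 1.86 per the authors' deposited table. AER, an alkenal reductase, fell from 7.13 to 0.475 FPKM (log2 -3.91, q = 0.0173 per the authors' deposited table). CYP81D11, a cytochrome P450 known to respond to chemicals, had 64.1 and 277 FPKM and was not called (q = 0.123 per the authors' deposited table). Of 6 tested anthocyanin genes, the pathway GSTF12 serves, F3H fell from 233 to 69.5 FPKM per the authors' deposited table (q = 0.00116) and no other was called, 16.7% beside 17.8% of all tested genes. The other 4 genes of the list, DFR and LDOX included, were not tested and were under 1 FPKM in both genotypes.

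**Figure D4:**
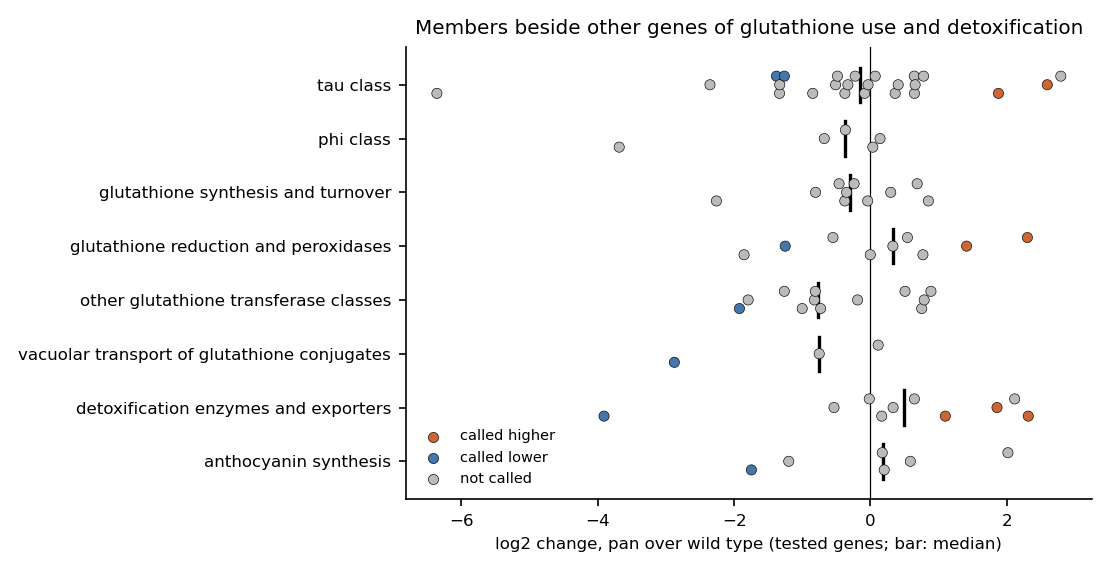
Log2 change (pan over wild type) of the tested members of each list, with called genes in orange (higher) and blue (lower), the rest in grey, and a bar at each median. The tau and phi medians (-0.16 and -0.37) lie near that of all tested genes, and the detoxification list (0.49) has 3 calls above 0 and 1 below.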

How the data were processed

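Cells sorted by WOX5::GFP from wild type and pan mutant roots were compared, with 4 libraries per genotype. Per the labels' protocols, RNA came from the RNeasy Micro kit and cDNA was amplified with the SMARTer low input kit, which adds variation at low levels; the labels do not say that strand is kept. Reads were handled with Cuffdiff, Cufflinks 2.1.1 and TopHat2 2.0.13 on TAIR10, per the submitters' processing notes. The authors deposited 1 pooled FPKM per genotype and gene, the log2 of pan over wild type with no pseudocount, a test score that was not used, and p-values with q-values. A Benjamini-Hochberg adjustment of the deposited p-values over the tested genes differed from the deposited q-values by at most 5.25e-07.

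No value per library was used, so no replicate error, depth or interval is given. Members and lists were chosen with earlier results of these data known. All members with a row of their own are named, and from each pathway list the called genes or, with none called, the 2 with the largest log2 change in either direction. Cell type marker lists are given as counts and sums. GSH1, GR1, ABCC1, ABCC2, CYP81D11, UGT73B4, UGT73B5, DFR and LDOX were named outside this rule, after their values were seen. Names, strands and sequences come from RefSeq (TAIR10.1), whose genes overlapped the same locus in 32217 of 32218 matched rows. Coding sequences were aligned globally with Biopython 1.88 (match 2, mismatch -1, gap opening -5, gap extension -1). The adjustment and the centring by expression class were tested on simulated data. Alternatives changed the q threshold, the genes adjusted over, a fold filter, the pseudocount and the scaling.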

Additional observations from a re-analysis of the deposited data

How the results depend on the processing

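No paired analysis was possible because the columns carry 1 pooled value per genotype and no replicate numbers, and for the same reason leaving out single libraries was not run. The count of called members, 4 at a q-value under 0.05, was 2 at a q-value under 0.01 (2 higher, 0 lower) and 7 at a q-value under 0.1 (3 higher, 4 lower), while the called share of all tested genes was 17.8%, 8.64% and 24.3% at these thresholds. Adjusting over genes with a mean of at least 1 FPKM, or at least 5 FPKM, gave 6 called members (19.9% and 26.3% of all genes tested there called), and asking for a fold of at least 2 as well gave 4 (17.2%). The median log2 change of the phi members turned from -0.37 to 0.24 with centring per expression class, which subtracts the median change of genes of like level and rests here on 5 genes. The medians of the members and of the tau class stayed below 0 under every pseudocount (0.1, 1 and 5), scaling and filter tried. None of the 4 called members changed sign under any pseudocount or scaling. Of the 29 tested members, 3 changed sign with centring per expression class (GSTU5, GSTU10 and GSTF2, none called) and none did with the other settings. Values moved by over 1.5-fold, or changed sign, in 7 of the 29 members with that centring, in 2 (GSTU23 and GSTF11) with a pseudocount of 0.1 or 1, and in 6 with a pseudocount of 5 (these and GSTU4, GSTU9, GSTU12 and GSTU20), none of them called. The cause of these shifts was not tested. The median of the glutathione reduction and peroxidase list went from 0.33 to -0.06 with that centring. The scaling by the median of genes with a mean of at least 5 FPKM moved all values by 0.02.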
